A study of Mus musculus with 6 samples.

Results

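Helper lineage transcription factors are the DNA-binding proteins that direct CD4 T cells into the Th1, Th2, Th17, follicular helper (Tfh) and effector regulatory T cell (effector Treg) programmes. The set examined held Tbx21 and Eomes for Th1, Gata3 for Th2, Rora for Th17, Bcl6 and Maf for Tfh, and Irf4, Prdm1 and Ahr for effector Treg. Members were taken by gene name from the deposited table, and all 9 were found among its 29199 genes. All 9 also passed the filter on low counts, as did 18321 genes in all.

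The RNA came from Treg, the Foxp3-expressing CD4 T cells that restrain other T cells, recovered from the spleen of grafted mice. Hosts were irradiated C57BL/6 (B6) mice, given bone marrow of B6 and of semi-allogeneic B6D2F1 origin at 1:1, together with expanded Treg and naive conventional CD4 T cells (Tconv). In 3 libraries (Treg with WT Tconv) the Tconv were wild-type (WT), and in the other 3 (Treg with HP1α KO Tconv) they came from knockout (KO) mice lacking HP1α, a protein of heterochromatin. Libraries are called WT Tconv replicate 1 to 3 and KO Tconv replicate 1 to 3 below. The study's methods name C57BL/6 J and CD45.1+ B6 mice as hosts, and which of them gave each library is not given in the sources used here. The comparison asked whether Treg differ with the genotype of the Tconv placed beside them.

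Every Treg was of WT genotype and came from B6 Foxp3-Thy1.1 mice, in which Thy1.1 marks Foxp3-expressing cells. Before injection, the Treg of both groups had been stimulated for 3 days through CD3 and CD28 with 500 IU/mL IL-2 and 0.1 ng/mL TGF-β1, and then kept for a further 5 to 7 days without stimulation. The HP1α KO mice carried a germline deletion, made by crossing a floxed Hp1a allele to CMV-cre mice on a mixed 129/Sv and C57BL/6 background, and the WT Tconv came from their littermates. Donor mice of WT and KO genotype were 6 to 12 weeks old, and hosts received 13 Gy in split doses. Treg were sorted 3 weeks after the graft as CD4+ Thy1.1+ donor cells, negative for CD45.1 and positive for CD45.2. Since HP1α was deleted in the Tconv only, its own transcript is no check of the groups in these Treg. Whether each library came from 1 recipient or from several is not given in the sources used here, so p-values measure the spread between these samples, which may be technical.

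Libraries held 87421755 to 119078882 counts, and the factors had between 456 counts (Eomes) and 45542 counts (Maf) in a library, so counting error was small beside the spread between libraries for most of them. The 7 Treg markers checked (Foxp3, Il2ra, Ikzf2, Ctla4, Tnfrsf18, Cd4 and Cd3e) had counts in every library and summed to 4352 to 4992 CPM (counts scaled to 1e6 in each library) with WT Tconv and 4213 to 4653 with HP1α KO Tconv. WT Tconv replicate 3 stood apart on the first principal component of the 500 most variable genes (at 60.9, with the other 5 libraries at 3.4 or below). In that library, 6 neutrophil markers summed to 1815 CPM, 6 red cell markers to 5501 and 6 macrophage or monocyte markers to 177, against 40.7 to 224, 370.2 to 688 and 12.4 to 47.1 in the other 5. Over all 6 libraries, 6 B cell markers summed to 14.4 to 25.8 CPM, 2 CD8 T cell markers to 5.82 to 8.85 and 5 dendritic cell markers to 8.52 to 23.3. Values without it are given below.

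These factors act in a network. T-bet (Tbx21) and GATA-3 drive opposing Th1 and Th2 fates, while Bcl6 and Blimp-1 (Prdm1) repress each other's genes at the branch between Tfh and effector cells. Treg borrow the same proteins: T-bet and GATA-3 mark Treg that follow Th1 and Th2 responses, and IRF4, Blimp-1, c-Maf and AhR serve the activated, IL-10-producing state. Because the RNA is from bulk samples, fewer cells that use a factor and less of its RNA per cell cannot be told apart.

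The bases before the start of transcription were read for the members, since several of these factors bind the genes of others. RefSeq (GRCm38.p6 coordinates) gave 8 such stretches for 7 of the 9 factors, and each was searched over 250 bases on both strands for short binding motifs. Rora is shown because it had the lowest p-value of the set, and Prdm1 and Bcl6 because they are the repressing pair and held matches. Capitals mark the matches.
Rora, chr9:68653536-68653785, plus strand: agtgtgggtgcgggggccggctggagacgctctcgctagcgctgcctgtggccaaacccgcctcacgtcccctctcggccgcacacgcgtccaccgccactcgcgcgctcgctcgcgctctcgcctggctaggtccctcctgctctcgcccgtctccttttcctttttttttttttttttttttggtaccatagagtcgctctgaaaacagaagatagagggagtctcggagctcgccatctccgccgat
Prdm1, chr10:44458749-44458998, minus strand: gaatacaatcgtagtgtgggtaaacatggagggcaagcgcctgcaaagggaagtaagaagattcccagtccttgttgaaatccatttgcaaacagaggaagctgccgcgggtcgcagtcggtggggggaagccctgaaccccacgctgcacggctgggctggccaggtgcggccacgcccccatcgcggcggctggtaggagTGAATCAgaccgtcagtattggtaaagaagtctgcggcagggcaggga
Bcl6, downstream start, chr16:23981284-23981533, minus strand: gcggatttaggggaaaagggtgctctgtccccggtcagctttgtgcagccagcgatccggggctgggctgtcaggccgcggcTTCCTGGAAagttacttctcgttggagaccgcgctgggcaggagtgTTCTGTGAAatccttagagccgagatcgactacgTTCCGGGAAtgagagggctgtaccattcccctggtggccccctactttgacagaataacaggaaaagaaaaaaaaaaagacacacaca

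The motif TTCNNNGAA, whose letters are shared by Bcl6 and STAT sites, occurred 3 times before the downstream start of Bcl6, as TTCCTGGAA, TTCTGTGAA and TTCCGGGAA, and once before its other start, as TTCTCAGAA from 118 to 110 bases upstream. It was found in 2 of the 8 stretches of the factors and in 7.01% of all 32817 stretches of the same length. The AP-1 motif TGANTCA was found as TGAATCA from 48 to 42 bases before the start of Prdm1, in 1 of the 8 stretches and in 6.75% of all. The IRF motif GAAANNGAA was found before Eomes alone among the 7 factors with an entry, and in 7.12% of all stretches. The Blimp-1 motif GAAAGTGA, which can overlap the IRF motif, had no match in the 8 and was held by 1.2% of all stretches. The T-box motif AGGTGTGA (1.12% of all stretches) was likewise without a match before any of the factors that had an entry. The same was true of the GATA motif AGATAA, which is shorter and was present in 9.99% of all stretches. No match was found either for the ROR motif AGGTCA, which 14% of all stretches contained on 1 strand or the other. The Maf motif TGCTGAC, present in 3.81% of all stretches, and the element bound by the AhR complex, searched as TNGCGTG and present in 4.1%, were also not matched. The Rora stretch, which held none of the motifs, lies at the most upstream start of a gene whose other transcripts begin far downstream, and counts per gene do not tell these starts apart.

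In Treg with HP1α KO Tconv, 8 of the 9 factors had a lower mean than in Treg with WT Tconv, and Rora differed most, by 30.7%. With edgeR's quasi-likelihood test and Benjamini-Hochberg adjustment over all genes tested, 0 of the 9 had an adjusted p-value under 0.05, as had 0 of 18321 genes (0%). DESeq2, with no threshold on the fold change, called 1 of the 9, Rora, as lower, beside 3.57% of the genes to which it gave an adjusted p-value, and limma-voom called 0. An unadjusted edgeR p-value under 0.05 was obtained for Rora, Ahr, Prdm1 and Bcl6, 4 of the 9, all lower with HP1α KO Tconv, where 7.52% of all genes tested were lower at that threshold. Every library with HP1α KO Tconv was below every library with WT Tconv for 4 of the 9 (Rora, Prdm1, Maf and Ahr), as it was for 11.6% of all genes tested. The median log2 fold change of the 9 was -0.22, and that of all genes tested was -0.01. Levels of single genes below are CPM scaled between libraries by the TMM method, and a negative log2 fold change means a lower level beside HP1α KO Tconv.

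**Figure D1:**
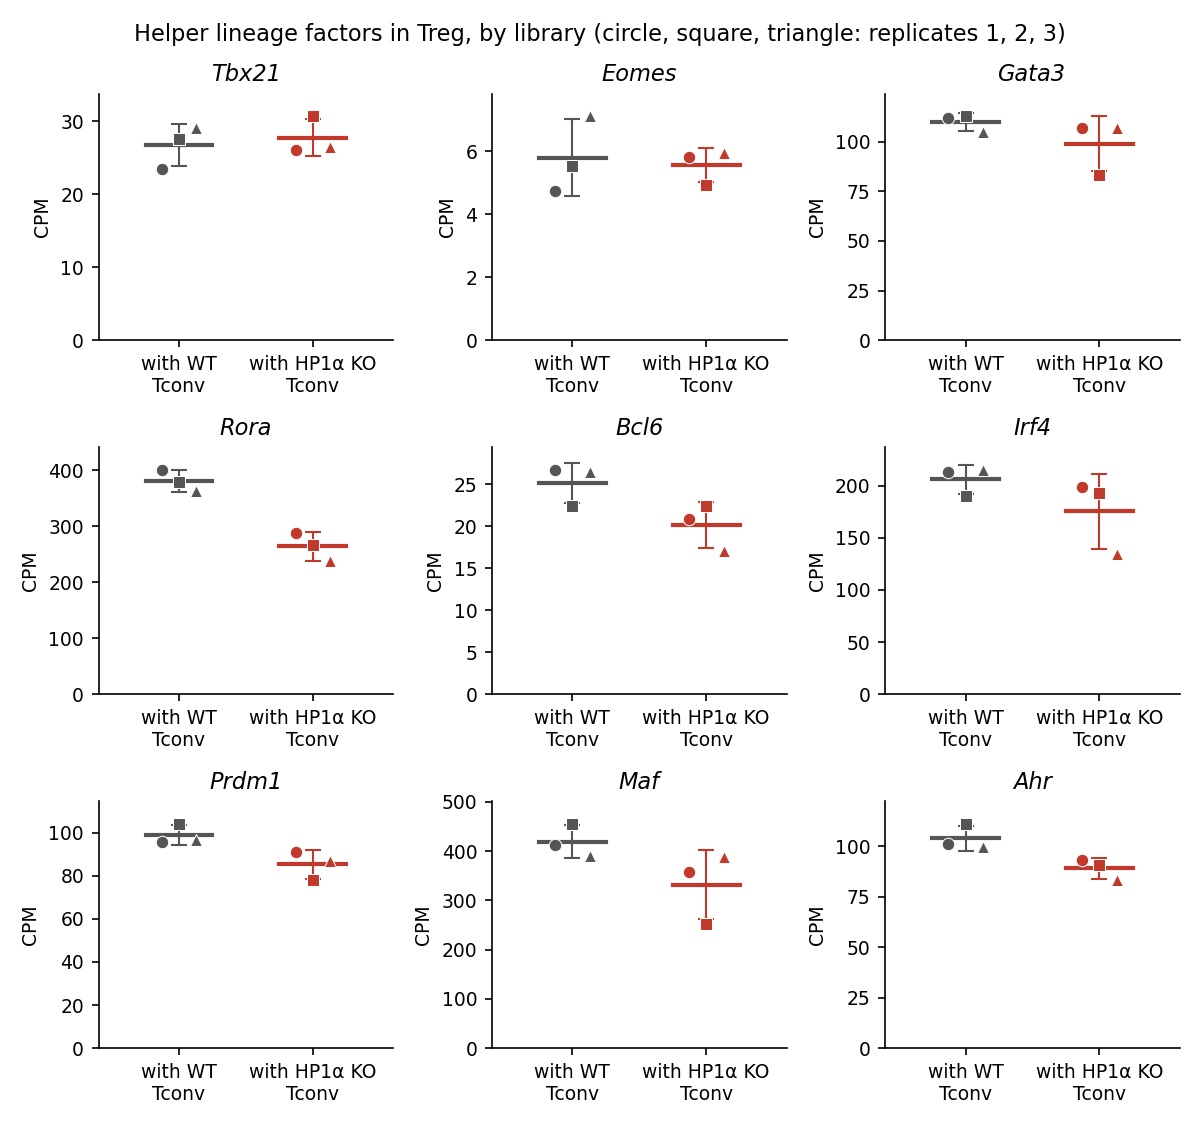
Level of each factor in CPM (y axis, from 0), with 3 points for Treg with WT Tconv (grey) and 3 for Treg with HP1α KO Tconv (red). Bars are means with SD and symbols are replicates 1, 2 and 3; Rora, Prdm1, Maf and Ahr show groups that do not overlap.

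Rora encodes RORα, a nuclear receptor that acts at Th17 genes and is used by Treg in tissues. Its gene (ENSMUSG00000032238) lies on the plus strand of chromosome 9, from 68561068 to 69295528 in GRCm39, the build of all gene positions given here. Rora was at 401, 380.2 and 363 CPM in WT Tconv replicates 1, 2 and 3, and at 289, 266 and 238 CPM in KO Tconv replicates 1, 2 and 3. The groups were well separated, with the highest KO Tconv library below the lowest WT Tconv library. The means were 382 CPM ± 19.2 (SD, n = 3) and 264 CPM ± 25.8 (SD, n = 3). This gave Rora a log2 fold change of -0.53 (standard error 0.0867, 95% interval -0.73 to -0.33).

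By its unadjusted edgeR p-value (2.57e-04), Rora ranked 15 of the 18321 genes tested. Its adjusted p-value was 0.209 in edgeR, 0.232 in limma-voom and 8.00e-05 in DESeq2, and without a filter beyond 1 count edgeR gave 0.0239. That last fit called 38 genes in all. Its log2 fold change for Rora was -0.53 with a standard error of 0.0877, close to the main fit. The call in DESeq2 was kept when any of the 6 libraries was left out, with adjusted p-values from 9.13e-07 to 0.00313. Without WT Tconv replicate 3 it stood at -0.56 on the log2 scale, and over all 6 such omissions in edgeR it ran from -0.59 to -0.46.

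Tbx21 encodes T-bet, which turns on Ifng and Cxcr3. Its gene (ENSMUSG00000001444) is on the minus strand of chromosome 11, from 96988897 to 97006158. Tbx21 was at 23.5, 27.6 and 29.0 CPM with WT Tconv and at 26.1, 30.7 and 26.4 CPM with HP1α KO Tconv, so the groups overlapped (means 26.7 ± 2.88 and 27.7 ± 2.61, SD, n = 3). It was the only factor of the 9 with a higher mean beside HP1α KO Tconv, and the direction turned when WT Tconv replicate 1 or KO Tconv replicate 2 was left out. Its log2 fold change was 0.05 (95% interval -0.19 to 0.30, edgeR adjusted p-value 0.845).

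Eomes, the other T-box factor, is known from cytotoxic T cells and NK cells and was the least abundant of the 9. Its gene (ENSMUSG00000032446) is on the plus strand of chromosome 9, from 118307280 to 118315200. Eomes was at 4.74, 5.52 and 7.12 CPM with WT Tconv and at 5.81, 4.93 and 5.94 CPM with HP1α KO Tconv (means 5.80 ± 1.21 and 5.56 ± 0.544, SD, n = 3). The highest value was in WT Tconv replicate 3, where 5 NK cell markers also summed highest, to 8.94 CPM against 2.89 to 5.62 in the other libraries, with Ncr1 and Klra8 at 0 in some library. Their part in the Eomes level was not tested, and without that replicate the log2 fold change was 0.12. With all 6 libraries it was -0.06 (95% interval -0.46 to 0.34, edgeR adjusted p-value 0.897).

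Gata3 encodes GATA-3, which opens the Il4, Il5 and Il13 locus in Th2 cells and is induced in activated Treg. The gene (ENSMUSG00000015619) is on the minus strand of chromosome 2, from 9861889 to 9894845. Gata3 was at 112, 113 and 105 CPM with WT Tconv and at 107, 83.3 and 107 CPM with HP1α KO Tconv (means 110.2 ± 4.13 and 98.9 ± 13.6, SD, n = 3). KO Tconv replicate 2 was low, and the remaining KO Tconv libraries lay within the WT Tconv range. For Gata3 the log2 fold change was -0.16 (95% interval -0.39 to 0.08, edgeR adjusted p-value 0.527), and -0.05 without that replicate.

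Bcl6, the repressor that defines Tfh cells and Treg of the follicle, was among the less abundant factors. The gene (ENSMUSG00000022508) is on the minus strand of chromosome 16, from 23783802 to 23807602, and both of its stretches described above lie just upstream of annotated RefSeq starts. Bcl6 was at 26.7, 22.4 and 26.4 CPM with WT Tconv and at 20.9, 22.4 and 17.1 CPM with HP1α KO Tconv, so that replicate 2 of each group met at the same rounded value (means 25.1 ± 2.38 and 20.1 ± 2.73, SD, n = 3). Bcl6 thus had a log2 fold change of -0.32 (standard error 0.120, 95% interval -0.60 to -0.04), with an unadjusted edgeR p-value of 0.0278 (adjusted 0.287 in edgeR and 0.144 in DESeq2).

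Maf encodes c-Maf, which drives Il10 and Il21 and is shared by Tfh cells and effector Treg. The gene (ENSMUSG00000055435) is on the minus strand of chromosome 8, from 116409632 to 116434579. Maf was at 412, 455 and 389 CPM with WT Tconv and at 357, 252 and 387 CPM with HP1α KO Tconv (means 419 ± 33.5 and 332 ± 70.8, SD, n = 3). The groups did not overlap, but by a narrow margin, between 387 and 389 CPM, and KO Tconv replicate 2 was far below the others. Between the groups Maf had a log2 fold change of -0.33 (95% interval -0.71 to 0.04, adjusted p-value 0.400 in edgeR and 0.173 in DESeq2), and -0.17 without that replicate.

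Irf4 encodes IRF4, which is induced by T cell receptor signals and needed for effector Treg. The gene (ENSMUSG00000021356) is on the plus strand of chromosome 13, from 30933209 to 30950959. Irf4 was at 213, 189.9 and 215 CPM with WT Tconv and at 199, 193 and 134 CPM with HP1α KO Tconv (means 206 ± 14.1 and 175 ± 35.8, SD, n = 3). Only replicate 3 of the KO Tconv libraries lay outside the WT Tconv range. Irf4 came to a log2 fold change of -0.23 (95% interval -0.59 to 0.13, edgeR adjusted p-value 0.532), and -0.07 without that library.

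Prdm1 encodes Blimp-1, which with IRF4 sustains Il10 in effector Treg. The gene (ENSMUSG00000038151) is on the minus strand of chromosome 10, from 44313171 to 44404497. Prdm1 was at 95.6, 104 and 96.6 CPM with WT Tconv and at 91.2, 78.1 and 86.7 CPM with HP1α KO Tconv, without overlap (means 98.7 ± 4.60 and 85.3 ± 6.66, SD, n = 3). Prdm1 is also a plasma cell gene, and 5 plasma cell markers summed to 12.3 CPM in WT Tconv replicate 3 and to 0.974 to 4.26 CPM elsewhere. Their part in the Prdm1 level was not tested, and without that replicate the log2 fold change was -0.23. With all libraries it was -0.21 (standard error 0.0778, 95% interval -0.39 to -0.03), with an unadjusted edgeR p-value of 0.0261 (adjusted 0.284 in edgeR and 0.150 in DESeq2).

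Ahr encodes the aryl hydrocarbon receptor, a ligand-activated factor of Th17 cells and of Treg at barrier sites. The gene (ENSMUSG00000019256) is on the minus strand of chromosome 12, from 35547973 to 35585057. Ahr was at 101, 111 and 99.6 CPM with WT Tconv and at 93.3, 90.6 and 83.2 CPM with HP1α KO Tconv, without overlap and with little spread (means 104 ± 6.20 and 89.0 ± 5.20, SD, n = 3). Its log2 fold change was -0.22 (standard error 0.0746, 95% interval -0.39 to -0.05), with an unadjusted edgeR p-value of 0.0174 (adjusted 0.251 in edgeR and 0.113 in DESeq2).

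**Figure D2:**
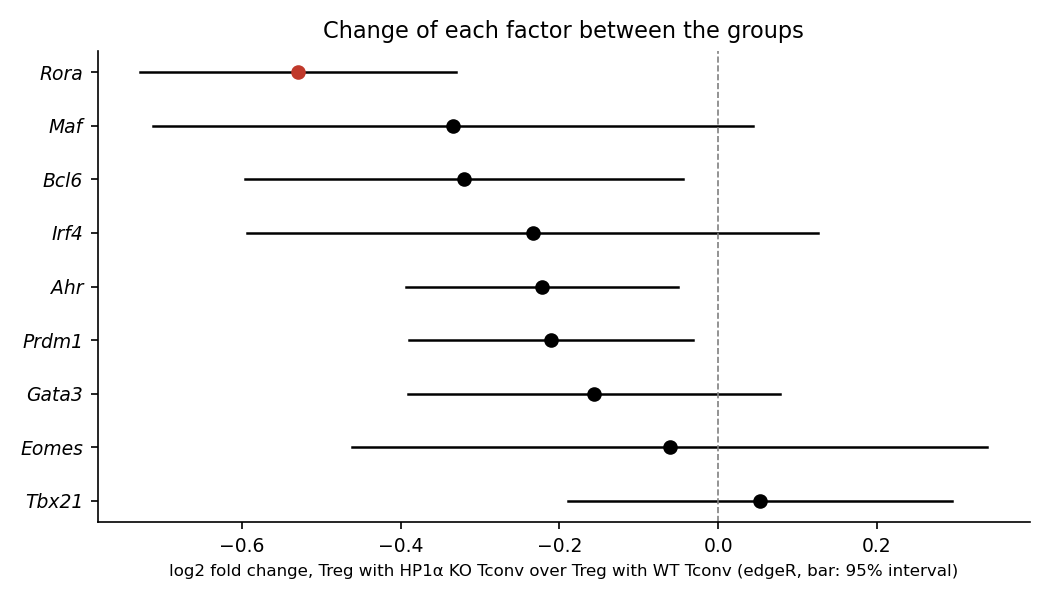
Log2 fold change of each factor (x axis, point) with its 95% interval (line) from edgeR, ordered by size; red marks the factor called by DESeq2. Intervals of Rora, Bcl6, Ahr and Prdm1 lie below 0, and that of Rora (-0.73 to -0.33) is farthest from it.

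Different libraries carried the low values. KO Tconv replicate 3 was lowest of the 6 for Rora, Bcl6, Irf4 and Ahr, KO Tconv replicate 2 for Gata3, Prdm1 and Maf, and WT Tconv replicate 1 for Tbx21 and Eomes. Over all genes tested, those libraries were lowest for 19.7%, 22.3% and 12.6% of genes. Irf4 and Bcl6 moved most when KO Tconv replicate 3 was left out, and Maf and Gata3 when KO Tconv replicate 2 was. Without WT Tconv replicate 3, the library with the neutrophil and red cell transcripts, the log2 fold changes were -0.38 for Maf, -0.28 for Bcl6, -0.25 for Ahr, -0.20 for Irf4, -0.19 for Gata3 and 0.12 for Tbx21, and 3 of the 9 factors were lower at an unadjusted edgeR p-value under 0.05, as were 5.72% of all genes tested without it. In DESeq2, which was run in this way after it had called Rora, leaving out KO Tconv replicate 2 added Bcl6 (adjusted p-value 0.0331) and Ahr (0.0494) to the call of Rora, in a fit that called 7.95% of the genes with an adjusted p-value lower.

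**Figure D3:**
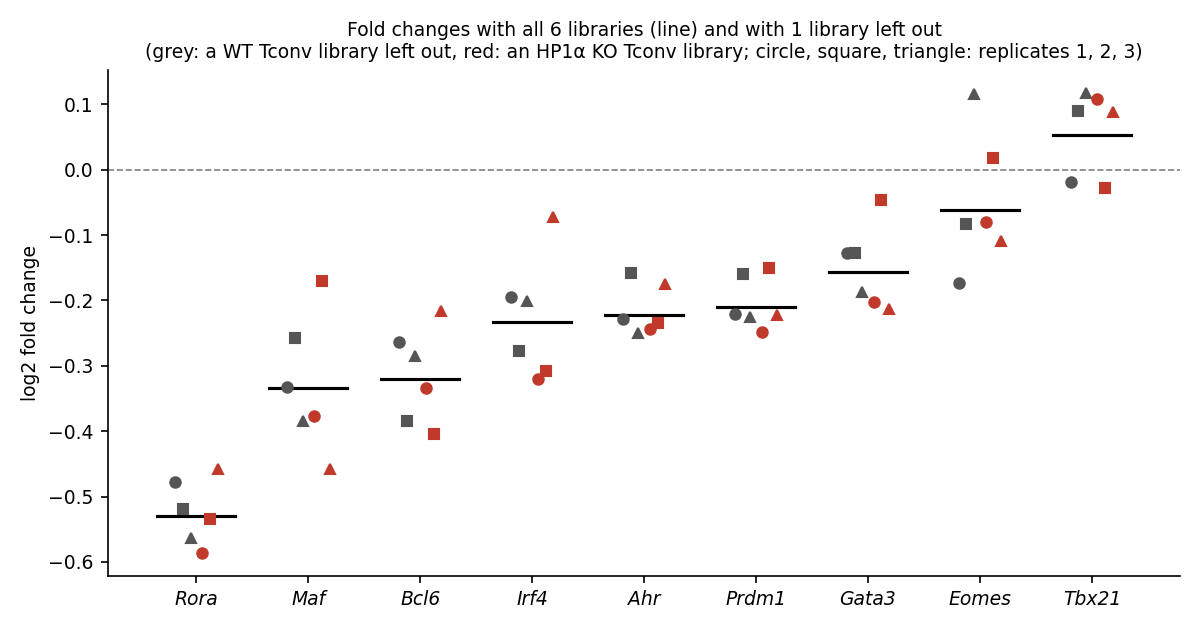
Log2 fold change of each factor from edgeR with all 6 libraries (line) and after leaving out a library (symbols; grey for a WT Tconv library, red for an HP1α KO Tconv library). Rora stays between -0.59 and -0.46, Maf reaches -0.17 and Irf4 -0.07, and Eomes and Tbx21 lie on both sides of 0.

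To compare the factors with each other, CPM were divided by the length of all exons of the gene in kilobases. In Treg with WT Tconv the order of levels was Maf (45.1 ± 3.61 CPM per kilobase, SD, n = 3), Irf4 (42.1 ± 2.88), Rora (26.4 ± 1.33), Gata3 (24.2 ± 0.908), Prdm1 (17.6 ± 0.820), Ahr (16.8 ± 1.00), Tbx21 (10.7 ± 1.16), Bcl6 (3.75 ± 0.356) and Eomes (1.39 ± 0.292). Maf and Irf4 overlapped over the libraries of this group, as did Prdm1 and Ahr, whereas the other neighbours did not. In Treg with HP1α KO Tconv, Maf (35.8 ± 7.63) and Irf4 (35.8 ± 7.31) were level on the same scale, followed by Gata3 (21.7 ± 2.98), Rora (18.3 ± 1.78), Prdm1 (15.2 ± 1.19), Ahr (14.4 ± 0.841), Tbx21 (11.1 ± 1.05), Bcl6 (3.0 ± 0.407) and Eomes (1.34 ± 0.131). Here Maf and Irf4, Gata3 and Rora, and Prdm1 and Ahr overlapped, and the other neighbours did not. Rora and Gata3 had changed places between the groups. Per kilobase, Rora ran from 25.1 to 27.7 and Gata3 from 23.2 to 24.8 with WT Tconv, while with HP1α KO Tconv Rora ran from 16.4 to 20.0 and Gata3 from 18.3 to 23.5. These ranges did not meet in the first group and overlapped in the second. With the length of the canonical transcript instead, a choice made after the data had been seen, the ranks were the same in each group, but Maf no longer lay near Irf4, at 106 against 43.3 CPM per kilobase with WT Tconv and 83.7 against 36.8 with HP1α KO Tconv. On that length Rora (32.9 to 36.4) and Gata3 (32.4 to 34.6) overlapped with WT Tconv as well, and Irf4 (28.2 to 41.8) overlapped Gata3 (25.6 to 32.8) with HP1α KO Tconv. Which of these neighbours overlap thus depends on the length used.

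**Figure D4:**
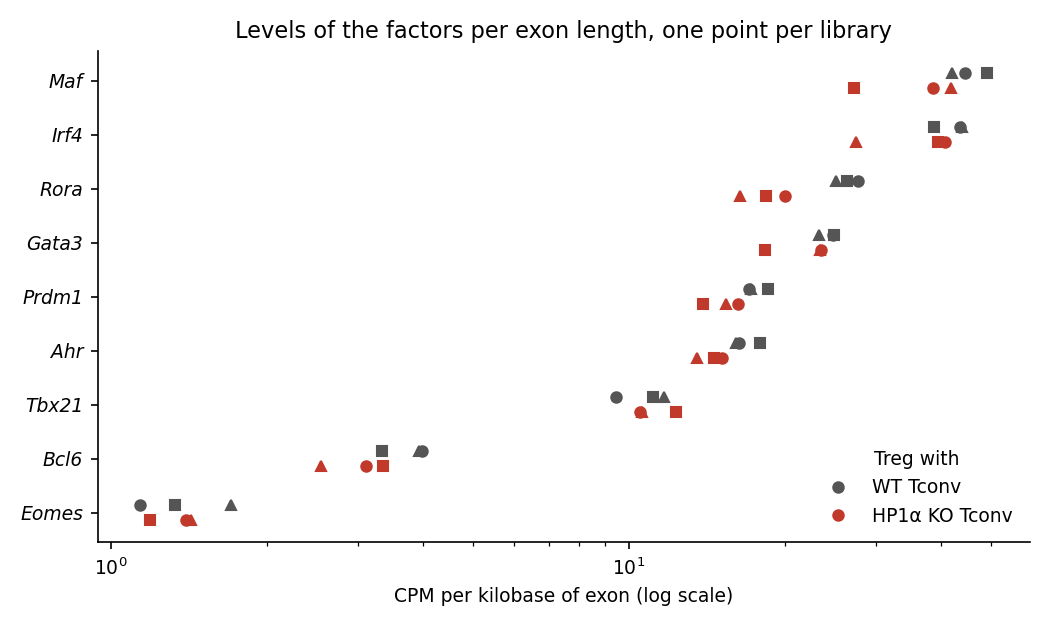
Level of each factor in CPM per kilobase of exon (x axis, log scale) for every library (grey beside WT Tconv, red beside HP1α KO Tconv). Maf and Irf4 lead at 27.2 to 49.1, Rora lies above Gata3 in every WT Tconv library and in KO Tconv replicate 2, and Eomes is lowest at 1.14 to 1.71.

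Balances between opposing or related factors were then compared, as the difference of log2 CPM within each library. Bcl6 minus Prdm1 was -1.98 ± 0.207 (SD, n = 3) with WT Tconv and -2.09 ± 0.272 (SD, n = 3) with HP1α KO Tconv, a difference of -0.11 (exact permutation test, two-sided, p = 0.700). Tbx21 minus Gata3 was -2.05 ± 0.200 and -1.83 ± 0.339, a difference of 0.22 (exact permutation p = 0.5). Tbx21 minus Eomes was 2.22 ± 0.166 and 2.31 ± 0.276, a difference of 0.10 (exact permutation p = 0.800). The adjusted value was 0.800 for each of the 3 pairs compared, and 3 libraries against 3 cannot give less than 0.100. Each difference was smaller than the SD of at least 1 of its groups. Bcl6 minus Prdm1 turned to a difference of 0.013 without KO Tconv replicate 3. Without KO Tconv replicate 2, Tbx21 minus Eomes turned to -0.061 and Tbx21 minus Gata3 fell to 0.023.

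The genes around the factors were read from 6 lists of partners and targets, 90 genes of which 86 passed the filter on low counts. Adjusted edgeR p-values under 0.05 were obtained for 0 of the 86, and unadjusted ones for 11 lower and 6 higher genes with HP1α KO Tconv (7.52% of all genes tested were lower and 6.98% higher at that threshold). Of the 75 to which DESeq2 gave an adjusted p-value, it called 7 lower and 2 higher, beside 3.57% and 1.93% of all such genes. Groups did not overlap for 13 lower and 7 higher genes, beside 11.6% and 11.5% of all genes tested. In all, 46 of the 86 were lower and 40 higher, with a median log2 fold change of -0.02. Each of the 9 DESeq2 calls was lost when at least 1 of the 6 libraries was left out. The call of Bhlhe40 was lost without KO Tconv replicate 2 only, at an adjusted p-value of 0.0716, and the other 8 were kept in 1 to 4 of the 6 omissions.

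In the effector Treg list, the largest of the 6 with 21 of the 75 genes that had a DESeq2 adjusted p-value, DESeq2 called 4 lower and 1 higher (3.57% and 1.93% of all such genes), with 11 lower and 10 higher in all and a median of -0.01. Cd44, the activation marker that binds hyaluronan, averaged 294 ± 20.8 CPM (SD, n = 3) beside WT Tconv and 240.2 ± 12.8 CPM (SD, n = 3) beside HP1α KO Tconv (log2 fold change -0.29, adjusted p-value 0.209 in edgeR and 0.0252 in DESeq2). Ctla4, the inhibitory receptor, and Il10, the suppressive cytokine, had log2 fold changes of -0.38 and -0.52, with adjusted p-values of 0.0416 and 0.0231 in DESeq2 and 0.232 and 0.246 in edgeR. Nfil3, a leucine zipper repressor named after its value was seen, had -0.63 (0.249 in edgeR and 0.0128 in DESeq2). Id3, an inhibitor of E proteins that is lost as Treg become effector cells, went the other way, from 10.8 ± 0.684 CPM beside WT Tconv to 14.8 ± 2.57 CPM beside HP1α KO Tconv (SD, n = 3; log2 fold change 0.45, adjusted p-value 0.229 in edgeR and 0.0476 in DESeq2).

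Among the 20 Th1 genes 12 were lower and 8 higher, with a median of -0.10. Bhlhe40, a repressor that limits Il10 in helper cells and acts beside T-bet, was called lower by DESeq2. It averaged 1479 ± 109 CPM (SD, n = 3) beside WT Tconv and 848 ± 243 CPM (SD, n = 3) beside HP1α KO Tconv (log2 fold change -0.80, adjusted p-value 0.210 in edgeR and 8.62e-04 in DESeq2). Il27ra, the IL-27 receptor, had a log2 fold change of 0.19 and did not pass (0.272 in edgeR and 0.142 in DESeq2). Cxcr3 and Ifng, given here because T-bet is known to turn them on, had log2 fold changes of 0.25 and -0.13 and did not pass (edgeR adjusted p-values 0.324 and 0.713). Without WT Tconv replicate 2 they stood at 0.39 and 0.041, so that Ifng turned direction.

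Of 13 Th2 genes tested 7 were lower and 6 higher, with a median of -0.04, and Il5 and Il24 had too few counts to be tested. Gfi1, a repressor that aids Th2 cell growth, averaged 29.7 ± 4.34 CPM (SD, n = 3) beside WT Tconv and 41.4 ± 5.97 CPM (SD, n = 3) beside HP1α KO Tconv (log2 fold change 0.48, adjusted p-value 0.229 in edgeR and 0.0344 in DESeq2). None of the 14 Th17 genes passed in edgeR, at either an adjusted or an unadjusted p-value under 0.05. Of all genes tested, 0% passed at the adjusted threshold, and 7.52% were lower and 6.98% higher at the unadjusted one. None of the 9 Th17 genes with a DESeq2 adjusted p-value passed there, where 3.57% of all such genes were called lower and 1.93% higher. Il17a, Il17f, Il22, Il23r and Ccl20 had no DESeq2 adjusted p-value. In a list this small, counts of 0 at the adjusted thresholds lie near those shares. At the unadjusted threshold a count of 0 lies below the shares, and that difference was not tested. Of the 14, 7 were lower and 7 higher with a median of -0.01.

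The 15 Tfh genes divided into 8 lower and 7 higher, with a median of -0.00. Pdcd1, which encodes PD-1, had a log2 fold change of 0.35 and did not pass (0.319 in edgeR and 0.132 in DESeq2), and 0.20 without KO Tconv replicate 2. Il21, a target of c-Maf named after its value was seen, was called lower by DESeq2 (log2 fold change -0.97, 0.274 in edgeR and 0.0338 in DESeq2), at a low level of 2.08 to 7.98 CPM. Of the 8 AhR genes tested 5 were lower and 3 higher, with a median of -0.02. Tiparp, a feedback inhibitor of AhR that is among its direct targets and was also named after its value was seen, was called lower by DESeq2 (log2 fold change -0.56, 0.268 in edgeR and 0.0255 in DESeq2). The classical AhR targets Cyp1a1 and Cyp1b1 had too few counts to be tested.

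**Figure D5:**
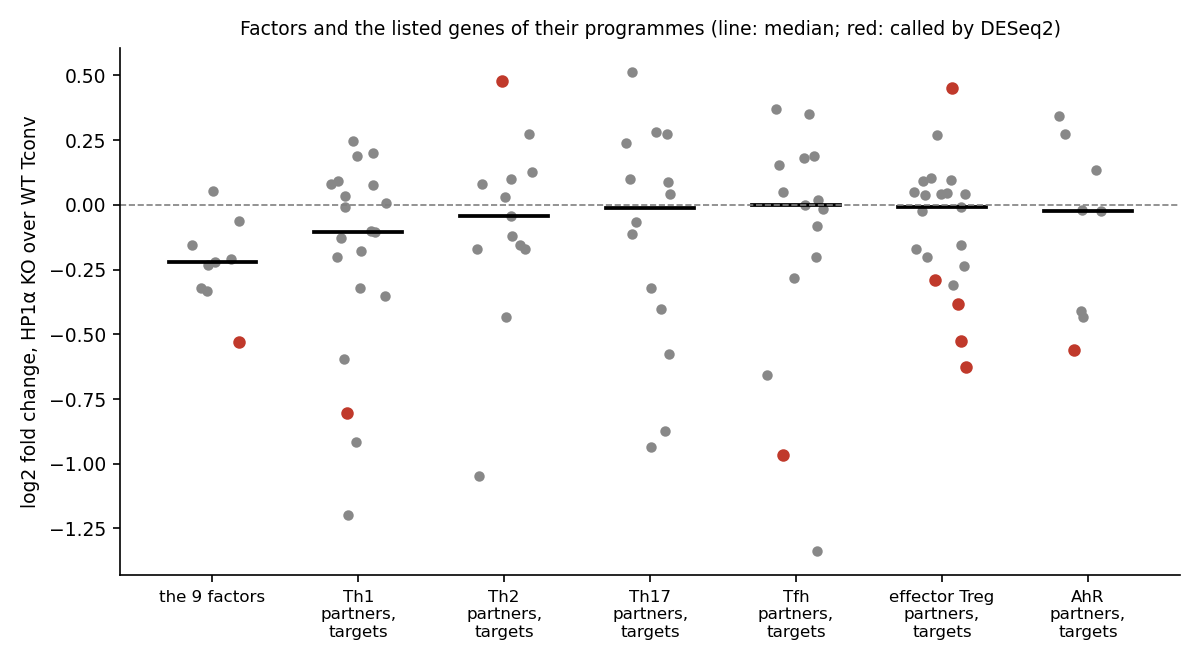
Log2 fold change (y axis) of the 9 factors and of the tested genes in each list of partners and targets; lines are medians and red points were called by DESeq2. The median of the factors is -0.22, and those of the lists lie between -0.10 and -0.00.

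For each factor, the 2 other genes whose log2 CPM followed it most closely over the 6 libraries were taken from 8545 genes with a mean of at least 10 CPM. The 6 libraries are 2 groups of 3, and these are the highest of many coefficients, so they are a description only. Rora was followed by Slc25a3, the mitochondrial phosphate carrier (Pearson's r = 0.996), and Dctn4, a dynactin subunit (0.995), both lower with HP1α KO Tconv, at log2 fold changes of -0.30 and -0.27. Maf was followed by Ank (0.997) and Cdc40 (0.996), Gata3 by Akap13 (0.997) and Tulp4 (0.995), and Prdm1 by Rnf8 (0.997) and Rbm18 (0.995). Ahr was followed by Mat2b (0.995) and Armcx5 (0.989), Bcl6 by Dgat2 (0.991) and C9orf72 (0.987), and Irf4 by Mpc1 (0.988) and Cep85l (0.987). Tbx21 was followed by Ldb1 (0.989) and Brpf1 (0.984), and Eomes by Rbm38 (0.995) and Wdr91 (0.992). No factor had another of the lists' genes among its 2.

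No factor had a near-identical copy over 80% of its transcript, at 95% identity or more. The shorter stretches found at that identity belonged to antisense genes that overlap the factor itself, so they are not copies elsewhere. The largest was 11.4% of the Eomes transcript, matched by Gm33460. Antisense transcripts overlapped up to 10.3% of the exonic bases of a factor (Gm33460 in Eomes, with 6 to 25 counts per library). Of the antisense genes in the table, Gm48236 had the most counts, 396 to 577 per library, and covered 2.05% of the exonic bases of Ahr. Gata3un shared 1.69% of the exonic bases of Gata3 on the same strand, with 67 to 119 counts, so a part of that size of the Gata3 count is uncertain.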

How the data were processed

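RNA from 6 libraries of sorted Treg was sequenced as paired reads of 150 bp after stranded total RNA preparation. The authors processed the reads with the nf-core RNA-seq pipeline version 3.9, aligning with STAR to GRCm39 and its Ensembl annotation and quantifying with Salmon. What they deposited is a table of estimated counts, 1 whole number for each gene and library, without normalization. Where reads fit more than 1 gene, Salmon shares them out by its model, so genes that overlap can gain or lose counts.

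Genes with enough counts by filterByExpr (18321) were fitted with edgeR 4.0.16 in R 4.3.3 (TMM, robust glmQLFit, glmQLFTest, group only), and p-values were adjusted by Benjamini-Hochberg over all of them. Standard errors were the absolute log2 fold change divided by the square root of F. DESeq2 1.42.0 (independent filtering at 0.05), a later version of the study's tool and run without the study's added fold change threshold, which none of the 9 factors reached, limma-voom (limma 3.58.1), other scalings and filters, a block for the replicate number and the omission of each library in turn were alternatives, and DESeq2 with a library left out or with the block was added after its calls had been seen. Log2 CPM used a prior count of 2, and marker sums used library totals without TMM scaling. Positions and exon lengths came from GENCODE release 39 on GRCm39, which matched 28854 identifiers, and upstream sequences from RefSeq.

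All 9 factors were named, with the 4 listed genes of smallest unadjusted edgeR p-value in each direction and, for each factor, the 2 genes most correlated with it. The members, lists and tests were chosen with earlier results of these data known. Precision was set by the spread between 3 libraries a group, not by depth.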

Additional observations from a re-analysis of the deposited data

How the results depend on the processing

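The direction of 7 of the 9 factors held under every alternative run. Of 180 single-factor values under alternatives, 161 kept their direction and side of the threshold, 11 newly passed it, 0 stopped passing and 8 reversed. Tbx21 reversed to -0.019 when WT Tconv replicate 1 was left out and to -0.027 when KO Tconv replicate 2 was (-0.035 and -0.034 in DESeq2), and otherwise ran up to 0.12. Eomes reversed to 0.12 when WT Tconv replicate 3 was left out and to 0.019 when KO Tconv replicate 2 was (0.11 and 0.011 in DESeq2), and otherwise ran down to -0.17 in edgeR and -0.19 in DESeq2. The cause was not tested. With a library left out, the Bcl6 to Prdm1 difference ran from -0.26 to 0.013 (KO Tconv replicate 3 left out), the Tbx21 to Gata3 difference from 0.023 (KO Tconv replicate 2 left out) to 0.32, and the Tbx21 to Eomes difference from -0.061 (KO Tconv replicate 2 left out) to 0.18. Adjusted p-values under 0.05 were obtained for 0 genes in edgeR, 687 in DESeq2, 38 in edgeR with no filter beyond 1 count, and 0 to 2 in edgeR with a library left out. For the 9 factors these counts were 0, 1 (Rora) and 1 (Rora), and 1 to 3 in DESeq2 with a library left out, where 1.22% to 7.95% of genes with an adjusted p-value were called lower. For the partner and target genes, 0 in edgeR became 9 in DESeq2. The 4 factors with an unadjusted p-value under 0.05 became 2 to 4 with a library left out (5.18% to 8.92% of all genes, lower), and the median of the 9 ran from -0.25 to -0.16. With total counts in place of TMM, 3 factors in place of 4 had groups that did not overlap, all lower, as did 8.90% of all genes in place of 11.6%.

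Libraries that share a replicate number were correlated in their deviations from the group means at -0.0420, 0.182 and 0.117. Libraries of different number gave -0.218 to 0.121. The value of 0.182 lay above that range and the others within it, and the numbers were not taken to pair the libraries. Under the replicate block, 1 gene of all passed in edgeR, 0 of the 9 factors passed, 2 had an unadjusted p-value under 0.05 (6.32% of all genes, lower), and their median was -0.22. DESeq2 with the block called 1 factor, Rora, and 1.82% of genes with an adjusted p-value lower.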
